A study of Homo sapiens with 24 samples.

Results

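The SR proteins and the hnRNPs are the main families of RNA-binding proteins that steer splice site choice. The genes described here are the protein-coding genes of the hg19 annotation (GENCODE lifted to GRCh37) whose symbol is SRSF followed by a number or begins with HNRNP. There were 37 of them among 20163 protein-coding genes, 12 SRSF and 25 HNRNP genes, and every one was looked up in the lists of regions that gained or lost chromatin accessibility after CDK9 inhibition. SR proteins carry RNA recognition motifs and a domain rich in arginine and serine. They bind exonic enhancers and as a rule promote exon inclusion. The hnRNPs coat nascent transcripts, and many of them repress the exons they bind. Both families are known for adjusting their own level through exons or retained introns that send the transcript to nonsense-mediated decay (NMD).

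Accessibility had been measured by ATAC-seq, in which a transposase cuts open DNA, in OCI-LY3 and VAL, which are human diffuse large B-cell lymphoma (DLBCL) lines. Cells received the CDK9 inhibitor AZD4573 at 30 nM for 3 or 8 h. The 0 h cells received no AZD4573, and the authors' names for the comparisons give them as DMSO. Each line and time had 4 libraries, 24 in all. By the labels, 2 of the 4 were made with standard ATAC-seq from 50000 cells and 2 with Fast-ATAC from 5000 cells, whereas the protocol text gives both methods the same cell number. The 0 h libraries of a line served as controls for both treated times, and each of the 4 comparisons gave a list of increased and a list of decreased regions. The comparisons are named by line and treated time, as VAL 3 h. A listed region is one that the authors called. The lists hold coordinates only, so accessibility in a library, the size of a change, its error and the depth of a library are unknown here, no test between groups could be made, and the identity of the lines could not be checked against marker genes. A gene absent from a list may have been unchanged, below the calling limit or without a peak. Whether the replicates came from separate cultures is not given in the labels.

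A gene was taken as listed when a region lay within 1 kb of a transcription start site (TSS) of one of its transcripts tagged basic or overlapped the gene. Of the 26369 distinct listed regions, 28 lay at these genes. In all 20 of the 37 genes had a listed region, 17 of them within 1 kb of a TSS. Every region near a TSS was an increased one. The 2 genes with a decreased region, HNRNPA2B1 and HNRNPDL, had it far from their TSS. The plot of listed regions by gene gives the state of all 37 genes in all 4 comparisons.

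**Figure D1:**
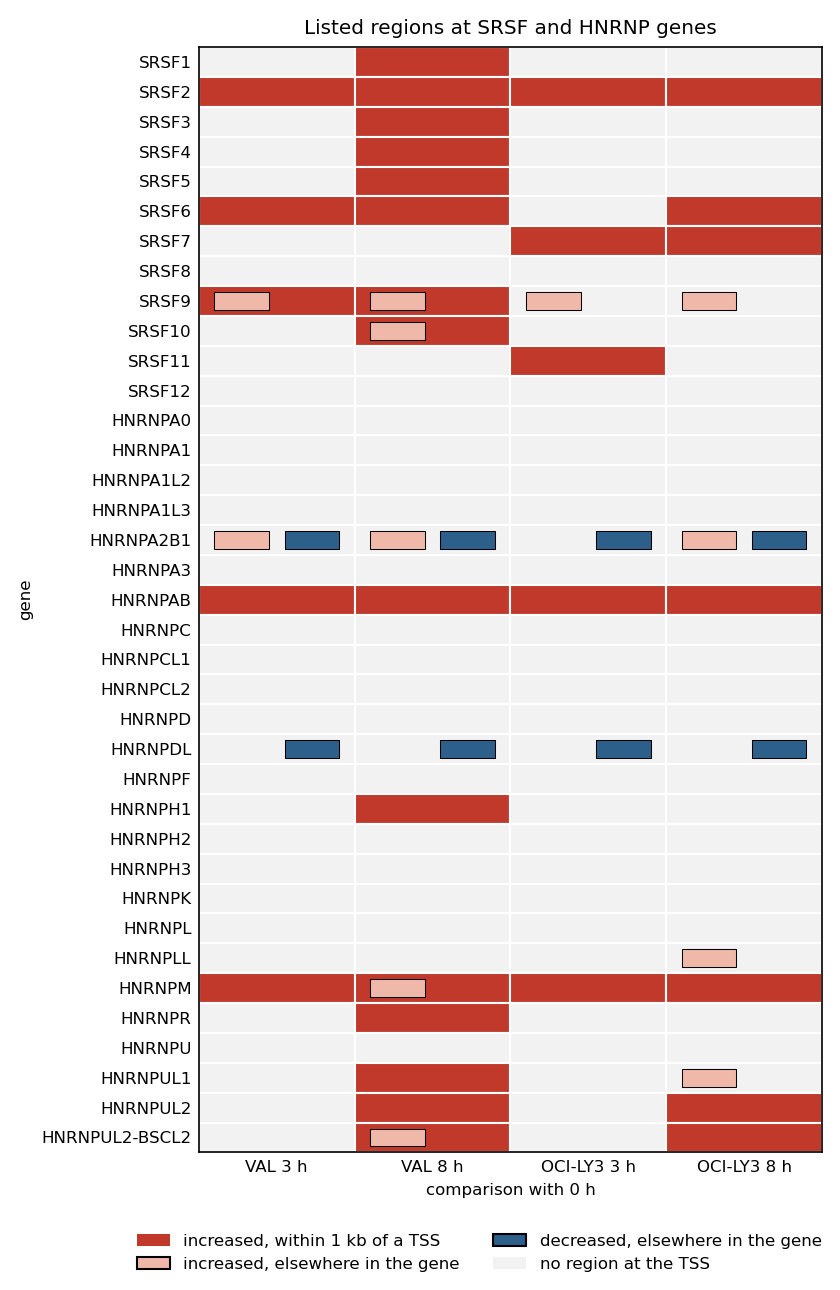
Listed regions at each of the 37 genes (rows) in the 4 comparisons with 0 h (columns). A filled red cell is an increased region within 1 kb of a TSS, a small pale box an increased region elsewhere in the gene, and a small blue box a decreased region elsewhere in the gene. SRSF2, HNRNPAB and HNRNPM are red in all 4 columns, and HNRNPA2B1 and HNRNPDL are blue in all 4.

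The sequences below lie just before the genes whose TSS region was listed in 2 or more comparisons, and show what the shared increased regions contain. Each is the stretch before the outermost TSS of the gene's coding transcripts inside the region, cut at 250 bases or at the first exon of a neighbouring coding gene, read from GRCh37 5′ to 3′ on the strand of the gene. Capitals mark matches, on either strand, to the CRE (TGACGTCA), ETS (CCGGAAG), YY1 (AANATGGCG), GC box (GGGCGG), NFY (CCAAT), TATA box (TATAAA) or E-box (CACGTG) letters, or to the NRF1 or CTCF consensus. None of these motifs contains another.
SRSF2 (chr17:74733416-74733468, minus strand): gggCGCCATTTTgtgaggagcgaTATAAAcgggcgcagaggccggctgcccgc
SRSF6 (chr20:42086283-42086532, plus strand): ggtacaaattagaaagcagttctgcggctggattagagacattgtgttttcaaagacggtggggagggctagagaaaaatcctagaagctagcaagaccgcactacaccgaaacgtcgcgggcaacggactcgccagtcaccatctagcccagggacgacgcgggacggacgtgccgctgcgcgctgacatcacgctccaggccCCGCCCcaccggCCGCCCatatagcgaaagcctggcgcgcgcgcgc
SRSF7 (chr2:38978637-38978675, minus strand): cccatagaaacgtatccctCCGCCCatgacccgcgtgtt
SRSF9 (chr12:120907552-120907652, minus strand): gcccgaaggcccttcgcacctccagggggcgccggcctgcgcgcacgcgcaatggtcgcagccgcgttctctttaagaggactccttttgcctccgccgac
HNRNPAB (chr5:177631284-177631533, plus strand): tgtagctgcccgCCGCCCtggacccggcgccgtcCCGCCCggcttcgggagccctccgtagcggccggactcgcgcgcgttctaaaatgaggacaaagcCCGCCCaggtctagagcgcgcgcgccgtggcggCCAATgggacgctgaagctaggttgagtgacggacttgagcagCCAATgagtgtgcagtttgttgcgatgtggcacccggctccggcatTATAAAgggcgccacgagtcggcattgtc
HNRNPM (chr19:8509401-8509650, plus strand): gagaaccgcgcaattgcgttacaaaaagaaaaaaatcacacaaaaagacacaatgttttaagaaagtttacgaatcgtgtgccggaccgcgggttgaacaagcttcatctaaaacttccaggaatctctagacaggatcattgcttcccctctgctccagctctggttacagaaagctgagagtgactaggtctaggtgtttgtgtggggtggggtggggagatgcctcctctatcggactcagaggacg
HNRNPUL2 (chr11:62494930-62495179, minus strand): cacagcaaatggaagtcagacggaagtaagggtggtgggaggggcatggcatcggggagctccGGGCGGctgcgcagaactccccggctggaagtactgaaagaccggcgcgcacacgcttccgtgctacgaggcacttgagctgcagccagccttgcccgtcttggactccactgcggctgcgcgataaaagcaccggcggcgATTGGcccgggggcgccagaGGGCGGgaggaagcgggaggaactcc
The SRSF2, SRSF7 and SRSF9 stretches are short because a neighbouring gene begins on the other strand 53, 39 and 101 bases away. SRSF2 and HNRNPAB hold the TATA letters close before their start. The HNRNPM stretch precedes an upstream start and had a GC content of 47.6%, against 59 to 69.3% in the other 6. Its first bases lie outside the listed region.

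Over the window from 250 bases before to 50 after the canonical TSS, the promoters of the 37 genes resembled promoters in general in composition, with a median GC content of 63.7% against 63.3% for all 20163 promoters. They held a median of 30 CpG dinucleotides against 23. The NFY letters occurred in 22 of 37 (59.5%, against 35.9% of all promoters), the TATA letters in 7 (18.9% against 9.8%), the YY1 letters in 3 (8.11% against 4.94%), the E-box in 5 (13.5% against 8.74%), the GC box in 23 (62.2% against 60.9%) and the ETS letters in 5 (13.5% against 14%). The CRE letters and the NRF1 and CTCF consensus, found in 2.69%, 1.69% and 2.37% of all promoters, were in 0 of the 37. In wider windows of 500 bases on either side of the TSS, the NFY letters were in 73% of these genes against 63.7% of all promoters, the TATA letters in 27% against 23.4%, the YY1 letters in 24.3% against 8.2%, the E-box in 21.6% against 18.3%, the GC box in 89.2% against 76.5% and the ETS letters in 18.9% against 22.3%. The difference from all promoters was thus smaller for NFY, TATA and the E-box and larger for YY1, the GC box and ETS than in the shorter window. A match is a description of the letters and not a bound site.

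The first question was at which of these genes the TSS gained accessibility after CDK9 inhibition, in which line and at which time. In VAL 3 h 5 of the 37 genes had an increased region within 1 kb of a TSS (13.5%, against 10.3% of all protein-coding genes), and at 8 h 15 did (40.5% against 25.1%). In OCI-LY3 it was 5 at 3 h (13.5% against 5.92%) and 7 at 8 h (18.9% against 9.3%). Without the regions that also lie within 1 kb of another coding gene's TSS, the counts fell to 2 (5.41% against 6.75% of all genes) in VAL 3 h, 9 (24.3% against 18.1%) in VAL 8 h, 2 (5.41% against 3.59%) in OCI-LY3 3 h and 2 (5.41% against 5.87%) in OCI-LY3 8 h. Of the 12 SRSF genes, 3 were listed in VAL 3 h, 8 in VAL 8 h (66.7%), and 3 in OCI-LY3 at each time (25%). Without the shared regions the SRSF count was 0 in VAL 3 h and in both OCI-LY3 comparisons, and 4 (SRSF3, SRSF4, SRSF5 and SRSF10, 33.3%) in VAL 8 h. Of the 25 HNRNP genes, 2 were listed at 3 h in each line (8%), 7 in VAL 8 h (28%) and 4 in OCI-LY3 8 h (16%), and the shares at 3 h and in VAL 8 h lay near those of all genes. The 8 h counts include both HNRNPUL2 and the readthrough gene HNRNPUL2-BSCL2, which share a region. Without readthrough genes and near-identical copies, 14 genes of both families in place of 15 were listed in VAL 8 h. In OCI-LY3 8 h it was 6 in place of 7. With regions anywhere in the gene counted too, 6 of 37 genes were listed as increased in VAL 3 h (16.2% against 14.3%), 16 in VAL 8 h (43.2% against 33.2%), 6 in OCI-LY3 3 h (16.2% against 8.71%) and 11 in OCI-LY3 8 h (29.7% against 16%). Without regions shared with another coding gene's TSS these counts were 3, 11, 3 and 6 in the same order.

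No gene of either family had a decreased region within 1 kb of a basic TSS. Such regions were rare among all genes as well, at 0.322% in VAL 3 h, 3.38% in VAL 8 h, 0.694% in OCI-LY3 3 h and 1.28% in OCI-LY3 8 h. With regions anywhere in the gene, the same 2 of 37 genes (5.41%) were listed as decreased in each comparison, against 4% (VAL 3 h), 12.5% (VAL 8 h), 4.4% (OCI-LY3 3 h) and 7.07% (OCI-LY3 8 h) of all genes. These shares are near or below those of all genes. With the TSS of all annotated transcripts in place of the basic ones, the count was 3 in VAL 3 h and in both OCI-LY3 comparisons. It stayed at 2 in VAL 8 h. When the midpoint of the region had to lie in the window or gene, the count was 1 in each comparison.

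**Figure D2:**
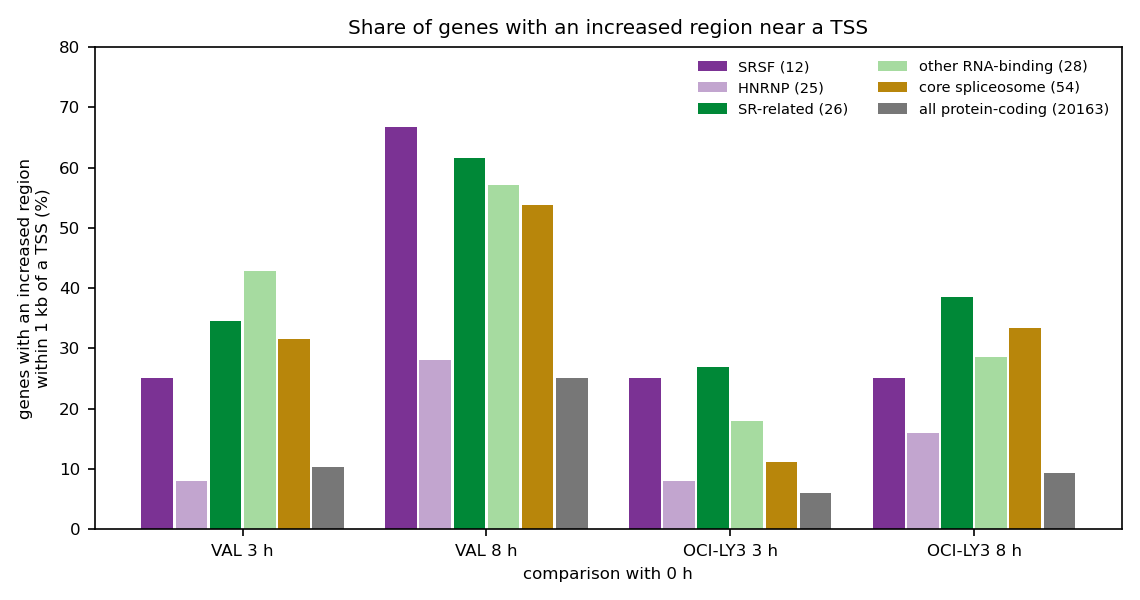
Share of genes (%) with an increased region within 1 kb of a TSS in each comparison with 0 h, for the SRSF and HNRNP genes, 3 lists of other splicing genes and all protein-coding genes, with the number of genes in parentheses. In VAL 8 h the SRSF bar stands at 66.7%, the HNRNP bar at 28% and the bar of all genes at 25.1%, with regions shared with a neighbouring gene's TSS included. The bars carry no error, since the lists hold no values by library.

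Among the SR proteins, SRSF2, which binds exonic enhancers and is recurrently mutated in myeloid disease, was the only SRSF gene with an increased TSS region in all 4 comparisons. Its region, chr17:74732397-74734253, began 840 bp before the canonical TSS, ended 1016 bp after it and covered exons 1 and 2 at least in part. MFSD11, a divergent neighbour, has a TSS within 1 kb of the same region, so the gain cannot be assigned to either gene.

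The TSS region of SRSF6 was listed in both VAL comparisons and in OCI-LY3 8 h, and not in OCI-LY3 3 h. It spanned chr20:42085778-42087657, covered both annotated basic TSS of the gene and, at least in part, exons 1 and 2, and lay within 1 kb of a TSS of the overlapping coding gene ENSG00000288000.

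The TSS regions of SRSF9 and SRSF7 were listed in different lines. That of SRSF9, chr12:120906424-120908251, was increased in both VAL comparisons and in neither OCI-LY3 list, and is shared with DYNLL1, which encodes a dynein light chain. That of SRSF7, chr2:38977397-38979113, was increased in both OCI-LY3 comparisons and in neither VAL list, and is shared with GEMIN6, a component of the SMN complex that assembles snRNPs. Since calls were made within each line, a difference between the lines at these genes was not tested.

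SRSF11 was listed in OCI-LY3 3 h alone. Its region, chr1:70670419-70672259, is the exception among the regions near a TSS in that it missed the canonical TSS. It covered 2 of 4 basic TSS, its midpoint lay at -15724 bp, that is upstream of the canonical TSS, and LRRC40 has a TSS within 1 kb of it.

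The TSS regions of SRSF1, SRSF3, SRSF4, SRSF5 and SRSF10 were increased in VAL 8 h and in no other comparison. SRSF1 is a founding SR protein, SRSF3 also takes part in mRNA export, and SRSF10 can act as a repressor of splicing when dephosphorylated. Their regions were 1535 to 2189 bp wide and covered the canonical TSS. The SRSF1 region (chr17:56083747-56085935) is shared with the coding gene ENSG00000266086, while those of SRSF3 (chr6:36561219-36562839), SRSF4 (chr1:29507447-29509287), SRSF5 (chr14:70233258-70234923) and SRSF10 (chr1:24306247-24307781) had no other coding TSS within 1 kb. SRSF10 had a second increased region in VAL 8 h, 440 bp wide, in an intron (chr1:24300309-24300748).

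Among the hnRNPs, HNRNPAB, an RNA- and DNA-binding relative of HNRNPD, and HNRNPM, a regulator of alternative splicing, were listed at the TSS in all 4 comparisons. The HNRNPAB region (chr5:177630939-177632720) was 1782 bp wide and covered 6 of 6 basic TSS and exons 1 and 2. The HNRNPM region (chr19:8509496-8510935) was 1440 bp wide, the narrowest of the 16 regions near a TSS, and extended 363 bp before and 1076 bp after the canonical TSS. Neither region was shared with another coding gene. HNRNPM had a second increased region in VAL 8 h, in an intron at -1881 to -899 bp from its transcript end (chr19:8552117-8553099).

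HNRNPUL2, a relative of HNRNPU, was listed at 8 h in both lines, in the region chr11:62494015-62496418. The readthrough gene HNRNPUL2-BSCL2 starts in the same region and is therefore no separate observation, and TTC9C begins there on the other strand. In VAL 8 h the readthrough gene also overlapped 3 increased regions further on, 2 of which lay within 1 kb of a TSS of BSCL2.

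HNRNPH1, which binds runs of G, HNRNPR and HNRNPUL1 were listed at the TSS in VAL 8 h alone. Their regions were chr5:179049592-179051613, chr1:23669850-23671648 and chr19:41768400-41770925, and none was shared with another coding TSS. The HNRNPUL1 region, 2526 bp wide, was the widest of the 16 and lay mostly before the canonical TSS. A separate intronic region of HNRNPUL1 (chr19:41803373-41804405) was increased in OCI-LY3 8 h alone.

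Over the 17 genes with an increased TSS region, 6 were listed in both lines, 9 in VAL alone and 2 in OCI-LY3 alone, and 8 of the 9 were listed at 8 h alone. These are 35.3%, 52.9% and 11.8% of the 17, against 29.7%, 61.4% and 8.86% of the 5629 protein-coding genes with such a region in any comparison. The 17 and the 6 include both HNRNPUL2 and HNRNPUL2-BSCL2, which share a region. The increased list of VAL 8 h was the longest, with 11121 regions against 4367 in OCI-LY3 8 h, and the lists at 3 h held 3545 and 1852. At 3 h the lines had 7 increased regions each at these genes, of which 4 had equal coordinates (57.1% of either list). Over all increased regions at 3 h, equal coordinates made up 20.6% of the VAL list and 39.4% of the OCI-LY3 list. At 8 h they had 21 and 10, of which 6 were equal (28.6% of those in VAL and 60% of those in OCI-LY3), against 20.9% and 53.3% of all increased regions at that time.

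**Figure D3:**
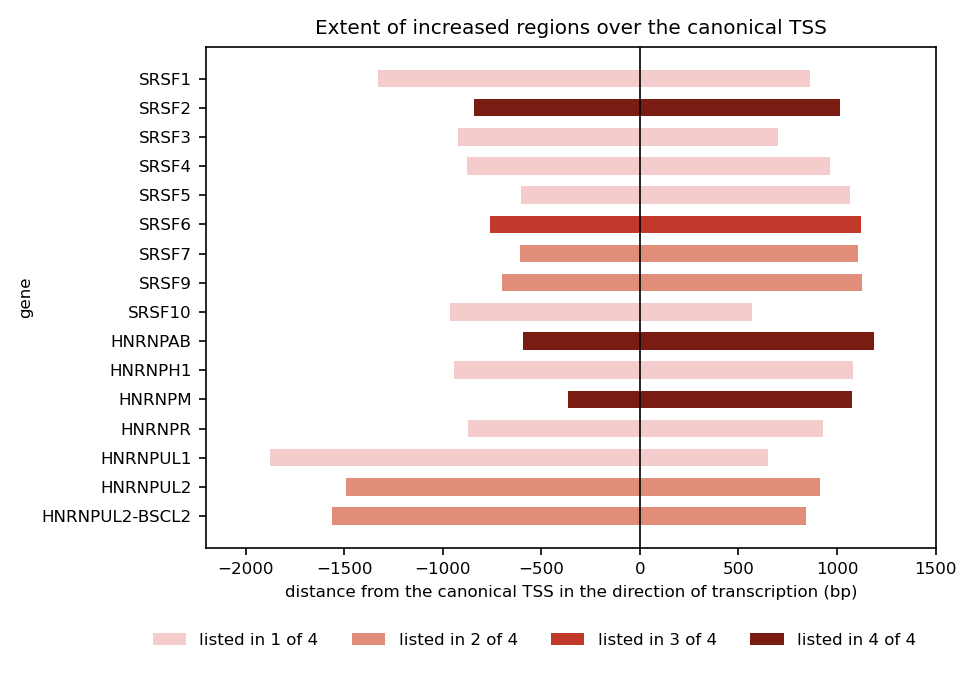
Extent of the increased regions that cover a canonical TSS, in bp from that TSS (0, black line) in the direction of transcription, with 1 bar a gene and the shade giving the number of comparisons that listed the region. The bars reach from 363 to 1877 bp before the TSS and from 570 to 1186 bp after it, and those of HNRNPUL2 and HNRNPUL2-BSCL2 are the same region. SRSF11, whose region missed the canonical TSS, is left out.

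Of the 16 distinct regions near a TSS, 15 covered the canonical TSS and 7 also lay within 1 kb of the TSS of another coding gene. Their median width was 1834 bp (1440 to 2526 bp) against 1574 bp (357 to 3026 bp) for the 5048 increased regions near any protein-coding TSS, and their median GC content 61.1% (47.2 to 69.8%) against 62.4% (32 to 82.6%).

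Both GC content and chromosome moved with the calls among all genes. With genes split into 3 classes of about equal size by the GC content of 500 bases on either side of the canonical TSS, increased TSS regions in VAL 8 h were found at 9.13% of all genes in the lowest, 28% in the middle and 38.2% in the highest class. The SRSF and HNRNP genes called there were 1 of 10, 6 of 11 (54.5%) and 8 of 16 (50%). In OCI-LY3 8 h the shares of all genes were 4.43%, 12.1% and 11.4%, and the SRSF and HNRNP genes called 0 of 10, 2 of 11 and 5 of 16. By chromosome, the share of all genes called in VAL 8 h was 54.6% on chromosome 17, where SRSF1 and SRSF2 lie, 50.1% on chromosome 19, where HNRNPM and HNRNPUL1 lie, 42.6% on chromosome 20 (SRSF6), 26.2% on chromosome 1 and 9.84% on chromosome 5 (HNRNPAB and HNRNPH1). In OCI-LY3 8 h the shares on these chromosomes were 13.9%, 28.2%, 8.78%, 8.27% and 2.71% in the same order, against 9.3% of all genes. The part of GC content and chromosome in these counts was not tested.

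The decreased regions were at or beyond a transcript end. HNRNPDL, a close relative of HNRNPD, lost accessibility in all 4 comparisons in chr4:83342666-83344459. This region ran across the end of the canonical transcript, from -737 bp, in the UTR of exon 8, to 1056 bp past it. HNRNPA2B1, which takes part in splicing and in mRNA transport, lost accessibility in all 4 comparisons in chr7:26226430-26228390. This lay 1157 to 3117 bp past the end of the canonical transcript, inside introns of longer annotated transcripts of the gene and over the end of NFE2L3, a gene on the other strand. Further on, an increased region (chr7:26217808-26218294) was listed for both VAL comparisons and OCI-LY3 8 h. HNRNPA2B1 was thus the only one of the 37 genes with regions of both directions within 1 kb of a TSS or in the gene.

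The central 300 bases of the decreased HNRNPA2B1 region, which hold no annotated exon, are printed to show how it differs from the promoter stretches above, on the strand of the gene and with the same motifs in capitals.
HNRNPA2B1 (chr7:26227261-26227560, minus strand): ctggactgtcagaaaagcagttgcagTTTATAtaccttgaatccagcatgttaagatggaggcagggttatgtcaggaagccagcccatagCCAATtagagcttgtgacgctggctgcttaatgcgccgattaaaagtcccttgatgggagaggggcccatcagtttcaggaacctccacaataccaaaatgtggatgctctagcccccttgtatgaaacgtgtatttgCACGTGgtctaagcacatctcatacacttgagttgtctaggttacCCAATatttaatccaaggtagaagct
Its GC content was 46%, and it held 5 CpG dinucleotides. Over the whole regions the GC content was 40.2% for HNRNPA2B1 and 39.1% for HNRNPDL, below that of each of the 16 regions near a TSS.

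As both decreased regions lay near a transcript end, the ends of all 37 genes were then examined, a choice made after these values were seen. A decreased region lay within 5 kb of the canonical transcript end of 8 genes in VAL 3 h (21.6%, against 1.82% of all protein-coding genes), 5 in VAL 8 h (13.5% against 3.68%), 7 in OCI-LY3 3 h (18.9% against 2.65%) and 8 in OCI-LY3 8 h (21.6% against 2.85%). Without HNRNPA2B1 and HNRNPDL, which prompted the count, it was 6 of 35 (17.1%), 3 (8.57%), 5 (14.3%) and 6 (17.1%) in the same order. Increased regions lay as near to the end of 2 of the 37 genes in VAL 3 h (5.41% against 6.29%), 7 in VAL 8 h (18.9% against 15.4%), 1 in OCI-LY3 3 h (2.7% against 3.07%) and 1 in OCI-LY3 8 h (2.7% against 6.13%). These increased counts include TSS regions of short genes. SRSF2, counted in all 4 comparisons, has its TSS region at -4056 to -2200 bp from its end. That of SRSF5, counted in VAL 8 h, lies at -5464 to -3799 bp. The genes with a decreased region there were SRSF1, SRSF7, HNRNPA1, HNRNPA2B1, HNRNPA3, HNRNPDL, HNRNPF and HNRNPK. HNRNPA1 and HNRNPA3 are core hnRNPs that antagonise SR proteins at splice sites, HNRNPF binds runs of G, and HNRNPK binds C-rich RNA.

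For HNRNPA3 (chr2:178089013-178090603), HNRNPF (chr10:43879143-43880584) and HNRNPK (chr9:86579160-86581449) the region was decreased in all 4 comparisons and began 326, 482 and 1549 bp past the canonical end. For HNRNPA1 (chr12:54681566-54683401) it began 695 bp past the end and was listed in VAL 3 h and in both OCI-LY3 comparisons. SRSF7 had such a region 582 bp past its end (chr2:38969352-38970159) in VAL 3 h and in both OCI-LY3 comparisons, and another 1942 bp past it in OCI-LY3 3 h alone. The SRSF1 region (chr17:56072491-56073647) began 4633 bp past the end and was listed in VAL 3 h and OCI-LY3 8 h. HNRNPA1, HNRNPA3, HNRNPF and HNRNPK had no listed region by the TSS and gene body rule.

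SRSF7 had an increased region at the TSS and a decreased one past the end in both OCI-LY3 comparisons. The regions of HNRNPA3 and SRSF1 overlap the coding genes NFE2L2 and ENSG00000266086, and the second SRSF7 region overlaps GALM, so the nearby gene cannot be told apart from these.

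**Figure D4:**
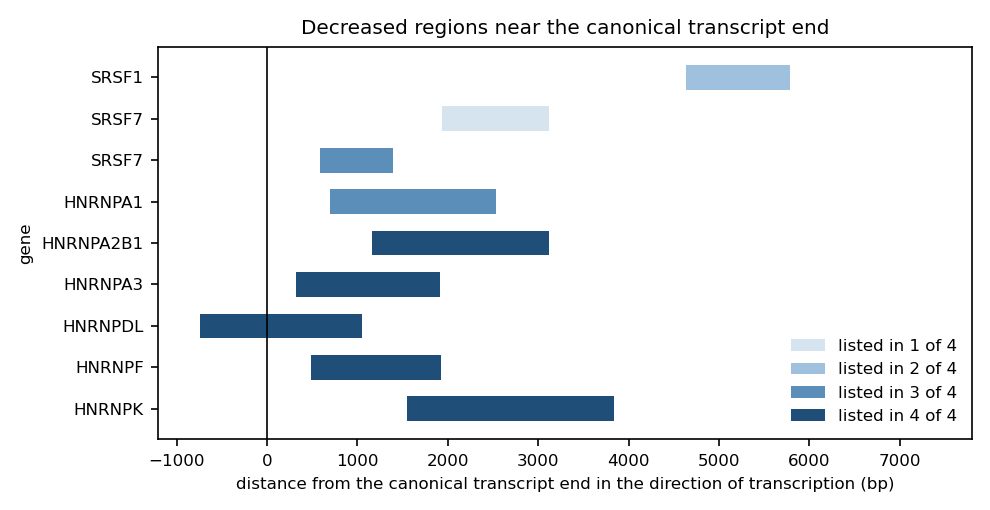
Decreased regions within 5 kb of the canonical transcript end of 8 genes, in bp from that end (0, black line) in the direction of transcription, with 1 bar a region and the shade giving the number of comparisons that listed it. The HNRNPDL bar alone crosses the end, starting at -737 bp, and the 5 darkest bars, of HNRNPA2B1, HNRNPA3, HNRNPDL, HNRNPF and HNRNPK, were listed in all 4 comparisons.

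Away from the TSS and these ends, few regions fell in the gene bodies. HNRNPLL, which regulates splicing in lymphocytes, had an increased region over exon 6 (chr2:38808438-38809134) in OCI-LY3 8 h alone. SRSF9 overlapped increased regions at chr12:120923800-120924834 in both OCI-LY3 lists and at chr12:120933294-120934806 in both VAL lists and OCI-LY3 3 h, but only through 1 long transcript that runs back past its canonical TSS, and the second of these lies at a TSS of DYNLL1. Exons found only in NMD or retained-intron transcripts are annotated in 17 of the 37 genes, and 5 listed regions overlapped one. Of these, 3 belong to HNRNPUL2-BSCL2, the others being the TSS region of SRSF7 and the far region of SRSF9.

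No region was listed at SRSF8, SRSF12, HNRNPA0, HNRNPA1, HNRNPA1L2, HNRNPA1L3, HNRNPA3, HNRNPC, HNRNPCL1, HNRNPCL2, HNRNPD, HNRNPF, HNRNPH2, HNRNPH3, HNRNPK, HNRNPL or HNRNPU. Their nearest listed region was 326 to 502233 bp away, with a median of 21954 bp. HNRNPA1L2, HNRNPA1L3, HNRNPCL1 and HNRNPCL2 are near copies of HNRNPA1 and HNRNPC, at which reads with more than 1 match had been removed.

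The other genes of the splicing machinery were counted from 3 lists. Of 26 SR-related proteins and regulators of SR proteins, such as the SRPK and CLK kinases, 9 had an increased TSS region in VAL 3 h (34.6%). In VAL 8 h 16 did (61.5%), in OCI-LY3 3 h 7 (26.9%) and in OCI-LY3 8 h 10 (38.5%). Of 28 other RNA-binding proteins with roles like those of hnRNPs the counts were 12 (42.9%), 16 (57.1%), 5 (17.9%) and 8 (28.6%). Of 54 core spliceosome subunits they were 17 (31.5%), 29 (53.7%), 6 (11.1%) and 18 (33.3%). Of all genes 10.3%, 25.1%, 5.92% and 9.3% had such a region, in the same order. The shares of each of these 3 lists lay above those of all genes and of the HNRNP genes in every comparison. Regions shared with another coding gene's TSS are included, and the list counts were not made without them. None of the 3 lists had a gene with a decreased TSS region. With regions anywhere in the gene, 1 or 2 genes of each list were listed as decreased in each comparison (1.85 to 7.69% of a list), against 4% (VAL 3 h), 12.5% (VAL 8 h), 4.4% (OCI-LY3 3 h) and 7.07% (OCI-LY3 8 h) of all genes. The list shares lay below these except for the other RNA-binding proteins in OCI-LY3, at 7.14% at each time. The genes were SCAF4, SCAF8 and SRPK2 among the SR-related genes, MATR3, RALY and RALYL among the RNA-binding proteins, and LSM8 and SF3B3 in the core spliceosome, of which LSM8 alone was listed in all 4 comparisons. These 8 are named after their values were seen.

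The list genes with an increased TSS region in all 4 comparisons included LUC7L, a factor associated with the U1 snRNP, RNPS1, a protein of the exon junction complex, and SFSWAP among the SR-related genes. They included DAZAP1 and ELAVL1, which binds AU-rich elements, among the RNA-binding proteins. In the core spliceosome they were BUD31, PRPF3, a U4/U6 snRNP protein, and SART1, a tri-snRNP protein.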

How the data were processed

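The authors mapped the ATAC-seq reads to hg19 (bowtie2), discarded mitochondrial, ambiguously mapped and duplicate reads, called peaks per sample with MACS2 (q of 0.05), merged them with bedtools, counted reads in them and used DESeq2 to compare both treated times of a line with its 0 h libraries (fold change over 1.5). The study gives 2 different limits for the adjusted p-value, and which of them the lists follow could not be settled. The 8 deposited lists hold the coordinates of called regions in bp, with no score, and 0 columns of values per sample, so depth and replicate spread are unknown.

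Regions were set against GENCODE 44 lifted to GRCh37 with Python 3.11.15, numpy 2.4.6 and pysam 0.24.0. A gene was called when a region shared 1 bp or more with the window of 1000 bp on either side of a basic TSS, or with the gene. All genes that the symbol rule matched were named. Those of the other lists were named when increased at a TSS in all 4 comparisons or decreased at a TSS in any, with 8 more named after their values were seen. The canonical transcript is the one tagged so in the annotation. The overlap code was tested on simulated data, where 400 of 400 planted regions inside the window were found and 400 of 400 outside left out. The genes, lists and alternatives were chosen with earlier results of these data known. A table of promoter sequences on another build was not used here, and a further named gene and a sequence are not reported here. Alternatives were other windows, TSS sets, overlaps and subsets of genes.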

Additional observations from a re-analysis of the deposited data

How the results depend on the processing

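Of 134 recomputed values, 114 stayed within 1.5 times the value given (for GC content, within 1 SD over regions) and 20 moved. Leaving out regions shared with the TSS of another coding gene lowered the genes with an increased TSS region from 5 to 2 in VAL 3 h, from 15 to 9 in VAL 8 h, from 5 to 2 in OCI-LY3 3 h and from 7 to 2 in OCI-LY3 8 h. With regions anywhere in the gene counted, it lowered them from 6 to 3 at 3 h in each line and from 11 to 6 in OCI-LY3 8 h. By its construction this setting removes the regions shared with divergent neighbours and that of the readthrough pair. It also removes those of SRSF1 and SRSF6, shared with the coding genes ENSG00000266086 and ENSG00000288000. The count of genes with a decreased region went from 2 to 1 in each comparison when the region's midpoint had to lie in the gene, and to 1 when the span of the canonical transcript was used, an alternative chosen after seeing the data. The median GC content of increased TSS regions in VAL 3 h was 70.5% in the central 200 bp and 66.2% over whole regions. In windows of 500 bases on either side of the TSS, 9 members in place of 3 held the YY1 letters (8.2% of all promoters), 8 in place of 5 the E-box (18.3%) and 1 in place of 0 the CTCF consensus (5.93%). The counts near transcript ends, 5 to 8 genes, were 5 to 7 within 2000 bp and 5 to 8 within 10000 bp. Without the 2 genes that prompted these counts they were 3 to 6, and the one in VAL 8 h fell from 5 to 3.

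No paired analysis was possible because the lists carry no values per library. Leaving out each replicate and a stricter threshold were not run for the same reason. The sharing of regions between 3 h and 8 h was left out because both times use the same 0 h libraries. Without scores, the lists do not show how near a missing gene was to being called.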
